A study of Danio rerio with 6 samples.

Results

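Transcripts of ETS family transcription factors and of the ewsr1 genes were examined in zebrafish gastrulae that carried the human fusion oncogene EWS-FLI1. The 10 genes were fli1, fli1rs (also named fli1b), erg, etv4, etv5a, etv5b, etv6, gabpa, ewsr1a and ewsr1b. They were taken as all Affymetrix probe sets that GEO's platform annotation assigns to exactly 1 gene symbol, that symbol being one of the 10. All 10 genes were found, with 12 of the 15502 tested probe sets, because fli1 and etv5a each had 2. The controls were 3 arrays of wild-type AB strain embryos, and the transgenic group was 3 arrays of Tg(HSP:EWS-FLI1) embryos, in which a heat shock promoter drives the human fusion. At 50% epiboly, when gastrulation begins, all embryos, controls included, received a 30 min heat shock at 39 °C. They then stayed at 28.5 °C for 2 h before RNA was prepared from pools of 40. The heat shock is therefore common to both groups, and the comparison asks which transcripts differ between transgenic and AB embryos. Any other difference between the transgenic line and the AB strain cannot be told apart from the transgene. Whether every embryo of a transgenic pool carried the transgene, and how the pools relate to clutches or parents, is not given in the sources used here, so p-values measure the spread between pools. The human fusion transcript itself was not analysed here, and whether any member probe set also detects it was not tested.

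ETS factors share a winged helix-turn-helix DNA-binding domain that recognises a purine-rich core, and they act as activators or repressors depending on the member. In Ewing sarcoma a chromosomal translocation joins the activating amino-terminal part of EWSR1, an RNA-binding protein of the FET family, to the ETS domain of FLI1, or less often to that of ERG. The zebrafish genes of this set are thus counterparts of the fusion partners (fli1, fli1rs, erg, ewsr1a, ewsr1b) or other factors of the ETS family. Among the latter, etv4 and etv5b are known in zebrafish as transcriptional readouts of FGF signalling through the ERK kinase cascade.

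All values are the deposited log2 RMA values, and each difference is the transgenic mean minus the control mean on the log2 scale. A probe set was called when its limma p-value, Benjamini-Hochberg adjusted over the 15502 probe sets, was under 0.05. As a reference for background, the 95th percentile of 44 control probe sets for bacterial transcripts and synthetic tags was used, which was 4.23. Correlations between arrays were 0.991 to 0.994 within controls, 0.998 within transgenic arrays and 0.982 to 0.988 between the groups. For GAPDH, the 3′ control probe set minus the 5′ one, a measure of RNA integrity, was 0.83 ± 0.12 in controls and 1.21 ± 0.10 in transgenic samples (SD, n = 3 each; exact permutation p = 0.1, the smallest this design allows). For acta1 it ran the other way, -0.11 ± 0.27 against -0.42 ± 0.07 (exact permutation p = 0.1), and the part of RNA integrity in the results was not tested. The labelled tissue, the gastrula embryo, was checked against its markers: all 14 listed, among them tbxta, noto, gsc, chrd and sox3, had means above the reference in both groups. Of these markers 6 fell and 1 rose, where over all genes, with 1 probe set each, 7.12% were called lower and 5.65% higher. The summed linear signal of the markers was 10877 to 11769 in controls and 8145 to 9390 in transgenic arrays. With each gene represented by its probe set of highest mean, the largest falls were foxd3 (-1.42), tp63 (-1.33), gsc and chrd (-0.91 each). A second, dimmer probe set of tbx16 fell by 1.22 (adjusted p = 2.62e-04) while the brighter one was not called (-0.41), and 7 markers fell when the probe set with the lowest p stood for a gene. The marker that rose was tbxta (0.54, named after its value was seen). In pooled whole embryos, fewer cells of a type and less RNA per cell cannot be told apart.

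The ETS genes moved in both directions. Of the 12 probe sets, 4 rose, 4 fell and 4 were not called. The share called over all probe sets was 11.8%, with 5.38% higher and 6.46% lower in transgenic embryos. The 4 that fell were all of the probe sets of the PEA3 subfamily, etv4, etv5a and etv5b. The 4 that rose were those of etv6, gabpa and fli1rs and one of the fli1 probe sets. That fli1 probe set had both group means under the background reference. Both ewsr1 genes, erg and the other fli1 probe set were not called. The median difference of the 12 was 0.12, against 0.00 over all probe sets. Control and transgenic arrays did not overlap at 11 of the 12 probe sets, 7 higher and 4 lower, where the share over all probe sets was 29.0%. These counts describe genes that were chosen with earlier results known.

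**Figure D1:**
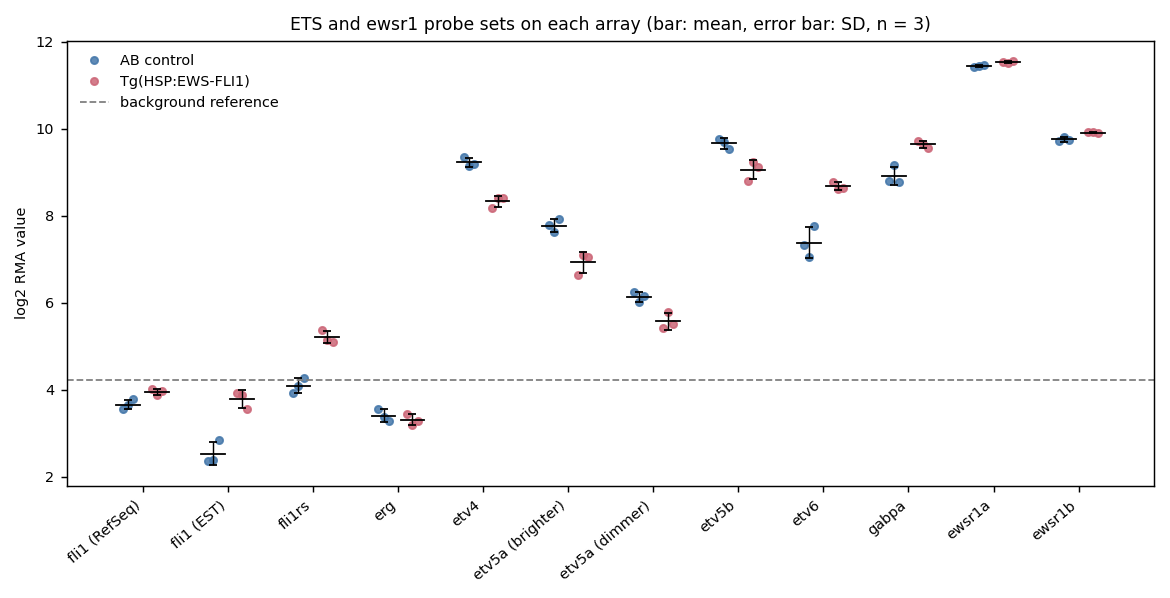
Log2 RMA values (vertical axis) of the 12 probe sets on each of the 3 AB control and 3 Tg(HSP:EWS-FLI1) arrays, with mean and SD. The dashed line is the background reference of 4.23. The arrays of the etv4, etv5a and etv5b probe sets are lower in the transgenic group, those of etv6, gabpa and fli1rs are higher, and both fli1 probe sets and erg lie under the line.

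The PEA3 subfamily members encode activators that transmit FGF signals. For etv4 the control arrays read 9.35, 9.15 and 9.20 and the transgenic arrays 8.18, 8.40 and 8.42. The groups were separated by 0.73, several times the SD within either group (0.10 in controls and 0.13 in transgenic samples). The difference was -0.90 (SE 0.10, 95% interval -1.13 to -0.67, adjusted p = 9.87e-04), which corresponds to a level 1.87-fold higher in controls. A larger absolute difference was found at 3.08% of all probe sets.

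etv5a, whose paralog is etv5b, was read by 2 probe sets that both fell. The brighter one read 7.78, 7.62 and 7.93 in controls and 6.65, 7.09 and 7.05 in transgenic samples, a difference of -0.85 (SE 0.14, adjusted p = 0.00512). The dimmer one read 6.25, 6.01 and 6.16 against 5.42, 5.80 and 5.51, a difference of -0.56 (SE 0.12, adjusted p = 0.0172). In both, every transgenic array lay under every control array, and transgenic replicate 1 was the lowest array. The change of the brighter one minus that of the dimmer one was -0.28 (exact permutation p = 0.2).

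etv5b, known in zebrafish as an FGF target at the blastoderm margin, read 9.77, 9.69 and 9.53 in controls and 8.81, 9.24 and 9.13 in transgenic samples. Its difference was -0.60 (SE 0.13, 95% interval -0.89 to -0.32, adjusted p = 0.0162), and a gap of 0.29 separated the groups. As with etv5a, transgenic replicate 1 gave the lowest value. The calls of etv5b and of the dimmer etv5a probe set were the ones among the 12 that could be lost by leaving out 1 array. Without control replicate 1 their adjusted p-values were 0.0561 and 0.0584, without transgenic replicate 1 they were 0.0577 and 0.0819, and without transgenic replicate 3 they were 0.0532 and 0.0801. Over all settings tried the difference ranged from -0.69 to -0.48 for etv5b and from -0.68 to -0.48 for this etv5a probe set. The brighter etv5a probe set and etv4 kept their calls with each array left out (highest adjusted p 0.0206 and 0.00706).

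Within the subfamily, the sizes of the falls were compared as the within-array difference between probe sets. etv4 and etv5a differed in their fall by -0.05 (exact permutation p = 0.9). The change of etv4 minus that of etv5b was -0.30, and that of etv5a minus etv5b was -0.24, each with an exact permutation p = 0.1, the smallest that 3 against 3 arrays allow, and 0.167 adjusted over the 10 pairs compared. This test cannot go below 0.1 with 3 arrays per group, so it does not show whether the falls were of equal size.

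**Figure D2:**
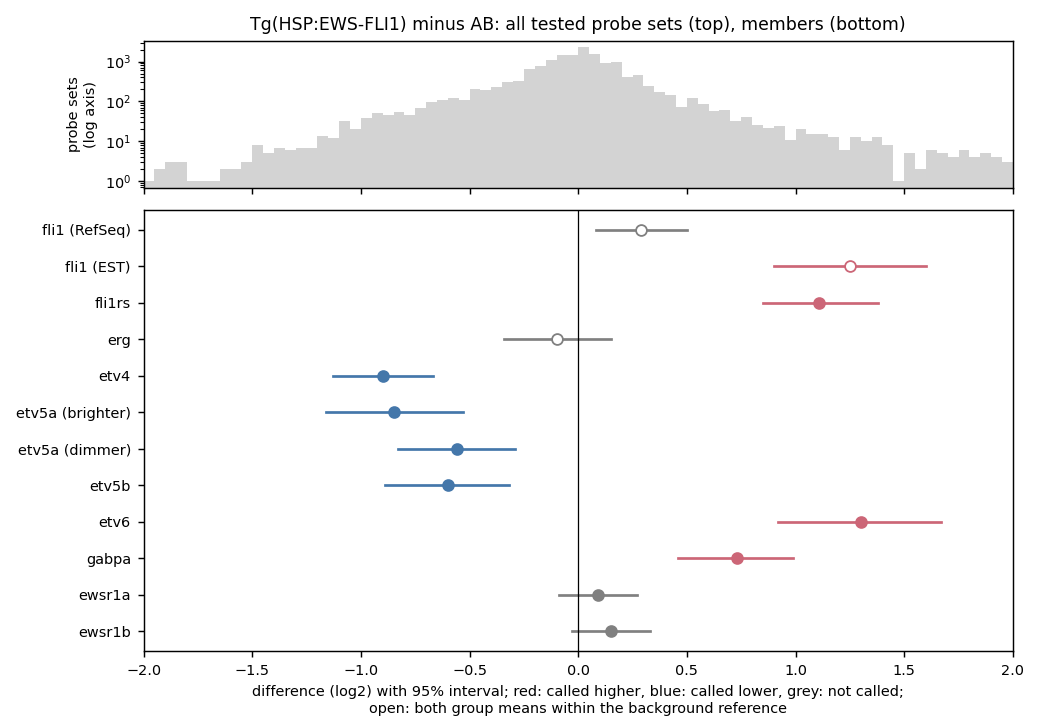
Difference in log2 RMA value, Tg(HSP:EWS-FLI1) minus AB, on the horizontal axis. The upper panel counts all tested probe sets within the axis range on a log axis, and the lower panel gives the members with their 95% intervals. The intervals of the PEA3 subfamily lie on the negative side, those of etv6, gabpa and fli1rs on the positive side, and those of both ewsr1 genes and erg cross 0.

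etv6 rose. It encodes a transcriptional repressor with a pointed oligomerisation domain, known in human leukaemias as a fusion partner. The control arrays read 7.33, 7.05 and 7.76 and the transgenic arrays 8.78, 8.61 and 8.64. The controls were spread widely (SD 0.36) and the transgenic arrays narrowly (SD 0.09), yet a gap of 0.85 lay between the groups. The difference was 1.30 (SE 0.16, 95% interval 0.92 to 1.67, adjusted p = 0.0017), a 2.46-fold higher level. Only 1.23% of all probe sets had a larger absolute difference. That share was larger for gabpa (5.03%), etv5b (7.28%) and the dimmer etv5a probe set (8.31%). With each array left out the call was kept, with a highest adjusted p of 0.0145, and the difference ranged from 1.13 to 1.49 over all settings tried.

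gabpa encodes the DNA-binding alpha subunit of GABP, which is broadly expressed and regulates many housekeeping and mitochondrial genes. It read 8.81, 9.16 and 8.78 in controls and 9.72, 9.65 and 9.56 in transgenic samples. The highest control lay 0.40 under the lowest transgenic array, and the difference was 0.73 (SE 0.12, 95% interval 0.46 to 0.99, adjusted p = 0.00507). The call was kept with each array left out (highest adjusted p 0.034). The gene gabpb2a, which encodes a beta subunit, was not called: its difference was 0.15 (SE 0.10, adjusted p = 0.462). The rise of etv6 exceeded that of gabpa by 0.57 (exact permutation p = 0.2), and leaving out control replicate 2 or 3 took this to 0.28 or 0.83.

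fli1, fli1rs and erg form the ERG subfamily, known in vertebrate embryos for roles in endothelial and blood development. fli1rs read 3.93, 4.09 and 4.27 in controls and 5.37, 5.15 and 5.11 in transgenic samples. Relative to the background reference, the control mean was -0.13 and the transgenic mean 0.98, so the size of the rise depends on the background. The difference was 1.11 (SE 0.12, 95% interval 0.85 to 1.38, adjusted p = 6.51e-04), and its call was kept in each of the 15 settings tried, with adjusted p-values from 2.77e-04 to 0.00535.

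fli1 was read by 2 probe sets, of which one was called. The one annotated to a RefSeq transcript of the gene read 3.56, 3.65 and 3.78 in controls and 4.01, 3.88 and 3.98 in transgenic samples, a difference of 0.29 (SE 0.09, 95% interval 0.08 to 0.50, adjusted p = 0.0789). The other, annotated to an expressed sequence tag (EST), read 2.36, 2.40 and 2.85 against 3.93, 3.88 and 3.55, a difference of 1.25 (SE 0.15, 95% interval 0.90 to 1.60, adjusted p = 0.00152). In both, every transgenic array was above every control array, but the sizes of the rise were unlike. The change of the RefSeq probe set minus that of the EST probe set was -0.96 (exact permutation p = 0.1, the smallest possible). The means of both were at or under the background reference in each group: relative to it they were -0.57 and -1.69 in controls and -0.27 and -0.44 in transgenic samples. The uncalled one passed the threshold when control replicate 3 was left out (difference 0.35, adjusted p = 0.0415), and over its settings the adjusted p ranged from 0.0415 to 0.244.

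erg read 3.57, 3.38 and 3.28 in controls and 3.45, 3.20 and 3.29 in transgenic samples. It was the only member whose groups overlapped, and its difference was -0.10 (SE 0.11, 95% interval -0.34 to 0.15, adjusted p = 0.669). Relative to the background reference its means were -0.82 and -0.92, so the array does not show whether erg transcripts changed. The ERG subfamily was nevertheless among the 10 pairs compared. The change of fli1rs minus that of erg was 1.21 (exact permutation p = 0.1, the smallest possible). With the RefSeq probe set of fli1, fli1 minus erg was 0.39 and fli1 minus fli1rs was -0.82 (exact permutation p = 0.1 each). No conclusion is drawn from these pairs, because erg and fli1 lay under the reference.

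ewsr1a and ewsr1b encode the zebrafish counterparts of EWSR1, which binds RNA and takes part in transcription and splicing. ewsr1a read 11.43, 11.44 and 11.46 in controls and 11.53, 11.51 and 11.56 in transgenic samples. ewsr1b read 9.72, 9.82 and 9.74 in controls and 9.92, 9.92 and 9.90 in transgenic samples. Both lay far above the background reference, by 7.21 and 5.53 in controls, and every transgenic array was slightly above every control array. The differences were 0.09 (SE 0.08, 95% interval -0.09 to 0.27, adjusted p = 0.558) and 0.15 (SE 0.08, 95% interval -0.03 to 0.33, adjusted p = 0.287), and neither was called in any of the 15 settings tried. The intervals reach at most 1.20-fold and 1.26-fold. The third FET gene, taf15, differed by 0.11 (SE 0.10, adjusted p = 0.555). The changes of ewsr1a and ewsr1b differed by -0.06 (exact permutation p = 0.2).

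**Figure D3:**
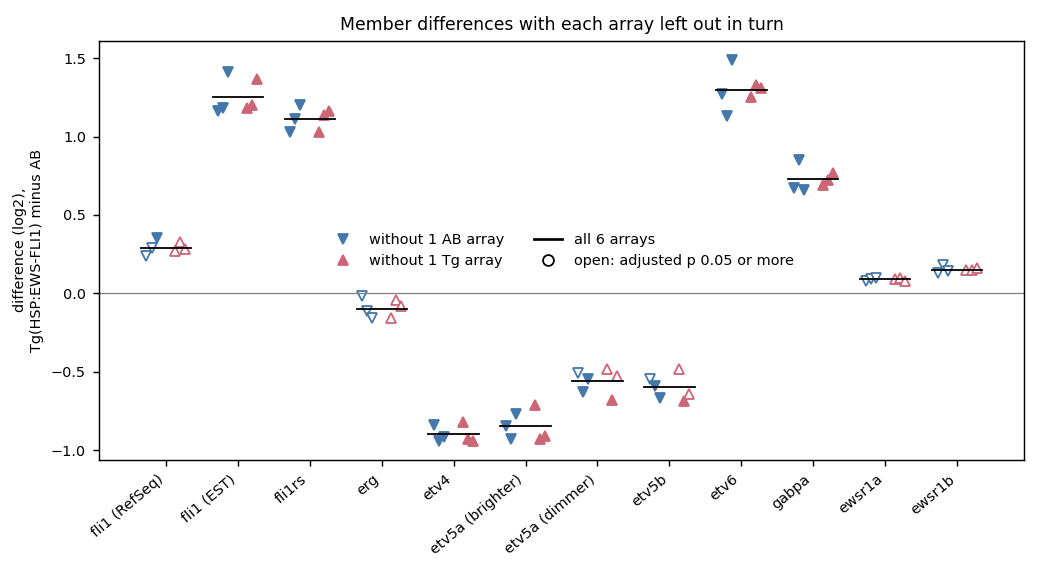
Difference in log2 RMA value of each probe set (vertical axis) with each array left out in turn, as triangles, and with all 6 arrays, as a line. Open symbols have an adjusted p of 0.05 or more. The sign of each member's difference was kept; open symbols among the called members occur at etv5b and at the dimmer etv5a probe set.

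The members lay on both sides of the background reference. Of the 12 probe sets, 8 had means above it in both groups: those of etv4, etv5a, etv5b, etv6, gabpa, ewsr1a and ewsr1b. For 1, fli1rs, only the transgenic mean was above it, and for 3, both fli1 probe sets and erg, neither was. The distances of the 8 ran from 1.91 for the dimmer etv5a probe set to 7.21 for ewsr1a in controls, and from 1.35 to 7.30 in transgenic samples. Over all tested probe sets, 38.8% had an overall mean at or under the reference.

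The remaining ETS family genes on the array fell or were not called. Of 21 further names, 10 were measured, of which 3 fell, 0 rose and 7 were not called by limma, with a median of -0.13. At an unadjusted p under 0.05, 4 were lower and 1 was higher. With 1 probe set per gene, 12.8% of all genes were called, 5.65% higher and 7.12% lower. elf1, a factor with known roles in blood cells, read 7.59, 7.56 and 7.62 in controls and 6.70, 7.0 and 6.94 in transgenic samples, a difference of -0.71 (SE 0.10, adjusted p = 0.00277). elf3, an epithelial factor, changed by -0.65 (SE 0.12, adjusted p = 0.010), and ets2, which is activated by ERK phosphorylation, by -0.56 (SE 0.10, adjusted p = 0.00851). Without transgenic replicate 1 the adjusted p-values of elf3 and ets2 were 0.057 and 0.0504.

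Several members lie next to another ETS gene. In the RefSeq gene table of assembly GRCz12tu, used for gene order, fli1 is adjacent to ets1, erg to ets2 and fli1rs to etsrp (also named etv2), an endothelial ETS factor with no value here. ets1 differed by -0.41 (adjusted p = 0.0715), with arrays at 5.29, 5.48 and 5.16 in controls and 4.82, 4.75 and 5.12 in transgenic samples, while its other probe set differed by -0.12 (adjusted p = 0.463). ets2 read 5.57, 5.70 and 5.88 in controls and 5.10, 5.17 and 5.21 in transgenic samples. Among the other adjacent protein-coding genes that were measured, appb next to gabpa fell (-0.37, adjusted p = 0.0267). gas2l1 next to ewsr1b (-0.82, adjusted p = 0.0554), gca next to etv5b (-0.15), rbm44 next to etv5a (-0.12) and zp3d.2 next to fli1rs (0.15) were not called.

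FGF ligands and receptors, which act upstream of etv4, etv5a and etv5b, fell at several genes. Over all genes, with 1 probe set each, 7.12% were called lower and 5.65% higher. Of 6 measured ligand genes, 3 fell: fgf24 (-1.14, SE 0.20, adjusted p = 0.00726), fgf8a (-0.96, SE 0.11, adjusted p = 0.00122) and fgf3 (-0.73, SE 0.12, adjusted p = 0.00614). fgf3 lay near the background reference, with a control mean of 4.65 above it and a transgenic mean of 3.92 within it. The means of the other 3 ligand genes did not exceed the reference in either group. Of 5 receptor genes, 2 fell, fgfr4 (-0.84, SE 0.13, adjusted p = 0.00428) and fgfrl1a (-0.89, SE 0.16, adjusted p = 0.00937), the latter a receptor that lacks the kinase domain. The call of fgfrl1a was lost without transgenic replicate 1 (adjusted p = 0.0543). fgf8a read 8.69, 8.43 and 8.64 in controls and 7.44, 7.75 and 7.68 in transgenic samples. Transgenic replicate 1 was lowest, as for etv4, etv5a and etv5b, but also for elf1 and the markers foxd3, noto, gsc, chrd and tp63. For fgf24 it was the highest transgenic array (5.25, 5.03 and 5.05). The median difference was -0.37 for the ligands and -0.51 for the receptors, against 0.00 over all genes. The part of FGF signalling in the falls of etv4, etv5a and etv5b was not tested.

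Of 8 measured genes that relay the signal to ERK (adaptors, a phosphatase, a GTPase and kinases), 1 was called, a share close to the 12.8% over all genes. It was the adaptor gene grb2b, which fell (-0.44, SE 0.10, adjusted p = 0.0246), and the median of the 8 was -0.03. grb2b lost its call without control replicate 1 or transgenic replicate 1 or 3 (highest adjusted p 0.111). Its other, dimmer probe set also fell (-0.42, adjusted p = 0.0225). Of 8 feedback inhibitors, 2 fell, 1 rose and 5 were not called, with a median of -0.04. The Sprouty genes spry4 (-0.72, SE 0.13, adjusted p = 0.00974) and spry2 (-0.53, SE 0.11, adjusted p = 0.0175) fell, the latter losing its call without transgenic replicate 1 or 3 (highest adjusted p 0.0863). Of the other spry2 probe sets, one fell (-0.40, adjusted p = 0.0193) and one was not called (-0.21, adjusted p = 0.229). The MAP kinase phosphatase gene dusp5 rose by 1.5 (SE 0.23, adjusted p = 0.00377) from a control mean within the background reference. The feedback genes dusp6 and il17rd, named after their values were seen, differed by -0.01 (SE 0.09) and 0.00 (SE 0.08), at arrays between 8.67 and 8.91 and between 8.20 and 8.29.

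**Figure D4:**
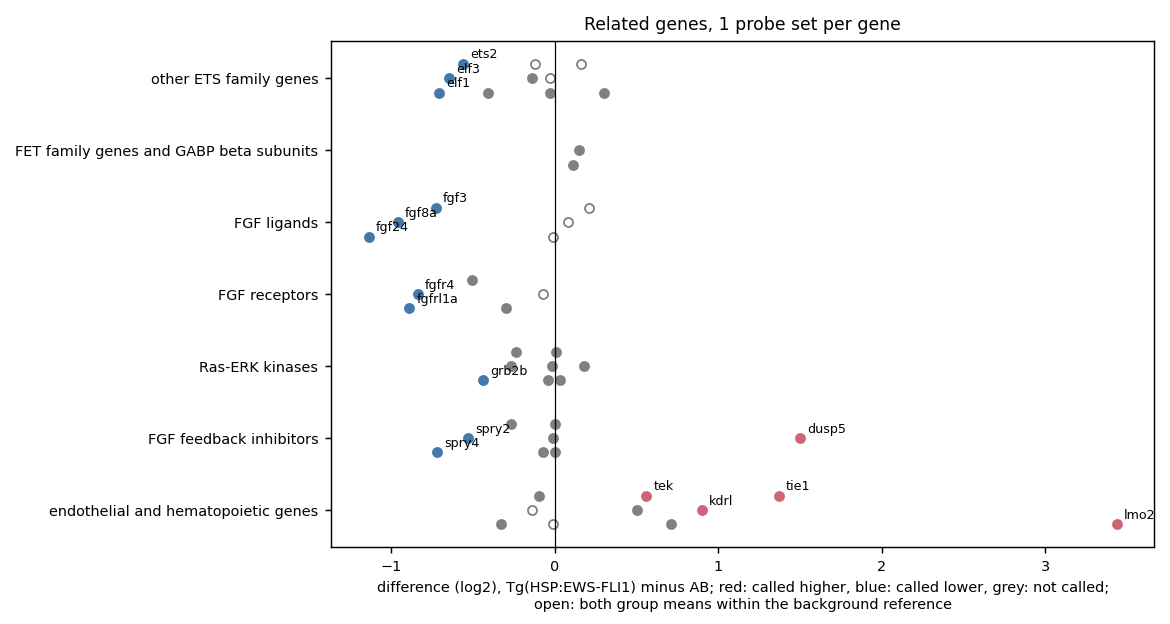
Difference in log2 RMA value, Tg(HSP:EWS-FLI1) minus AB (horizontal axis), of genes related to the members, 1 probe set per gene and 1 row per list. Called genes are named; the FGF ligands and receptors that were called are all lower, and the called endothelial and hematopoietic genes are all higher.

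Endothelial and hematopoietic genes, with which fli1, fli1rs and erg are expressed in later embryos, rose at 4 of 10 measured members, with 6 not called and a median of 0.53. Over all genes, with 1 probe set each, 5.65% were called higher and 7.12% lower. The 4 that rose were the LIM-domain cofactor gene lmo2 (3.44, SE 0.19, adjusted p = 1.53e-05), tie1 (1.37, SE 0.12, adjusted p = 2.06e-04), kdrl (0.90, SE 0.13, adjusted p = 0.00331) and tek (0.56, SE 0.11, adjusted p = 0.0143). The last 3 encode receptor tyrosine kinases of endothelium. tie1 read 3.50, 3.72 and 3.85 in controls and 5.21, 4.96 and 5.02 in transgenic samples, on either side of the background reference like fli1rs. All 4 had control means within that reference, and tek lost its call without transgenic replicate 1 or 3 (highest adjusted p 0.0666). The blood regulators tal1 (-0.01) and gata1a (-0.14), named after their values were seen, lay within it in both groups. Also not called were flt4 (0.71, adjusted p = 0.0829) and hhex (0.50, adjusted p = 0.0588), with every transgenic array above every control array. For aplnra every transgenic array lay under every control array. At an unadjusted p under 0.05, 6 of the 10 genes were higher and 1 was lower. The summed linear signal of the 10 genes was 1172 to 1559 in controls and 1329 to 1385 in transgenic arrays, so the ranges overlapped. Most of this sum came from gata2a and aplnra (control means 9.01 and 9.13), which were not called (-0.10 and -0.33). The sum therefore says little about the dimmer genes that rose. The part of endothelial or blood cell number in the rise of fli1rs was not tested.

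The genes whose profile over the 6 arrays lay closest to that of each called member were sought among 7453 probe sets with 1 gene and an overall mean above the background reference. The measure was the root mean square distance between profiles that had each been centred on their own mean. For etv4 the closest were tfap2a (0.0313), otx2b (0.042) and tcf12 (0.0506). For the brighter etv5a probe set they were fgfr4 (0.0451), tbx6 (0.0492) and efna5a (0.060). For etv5b they were zic2b (0.043), fzd7a (0.0515) and sox19a (0.0524). For etv6 the closest were trappc8 (0.0394), inpp4aa (0.0657) and irx3a (0.105), and trappc8 was also among the closest to the called fli1 probe set (0.123), after dhdh.1 (0.0972) and agpat3 (0.117). For fli1rs they were tfdp2 (0.0488), irx1a (0.0695) and plekhh1 (0.0909), and for gabpa gadd45ab (0.0709), atpaf2 (0.0729) and znf451 (0.0761). These distances rest mainly on the size of the difference between the groups, which was, for example, -0.88 for tfap2a and 1.26 for trappc8.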

How the data were processed

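The deposited file holds a log2 RMA value with 2 decimals for each probe set on each array. Per the submitters' processing notes, the tools were RMA, affy and R (2.2.0). The log2 base was inferred from the range, 1.58 to 13.46. RMA quantile-normalizes arrays and compresses differences of dim probe sets. Arrays have no read depth, and 3 per group limit the precision. Detection calls were not used here.

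The 115 manufacturer controls among the 15617 probe sets were not tested. GEO's annotation gave 1 gene for 10795 of the rest, several for 135 and did not list 4572; 10711 of the 10795 matched the RefSeq table (GRCz12tu) by Entrez identifier. limma 3.58.1 in R 4.3.3 (lmFit, eBayes, group means, two-sided) gave all adjusted p-values. Pairs were tested with two-sided exact permutation tests (scipy 1.17.1 in Python 3.11.15; plots: matplotlib 3.10.9). A gene in a list is represented by its probe set with the highest mean. On simulated data with 15502 probe sets, the fit recovered 44.8% of changes of 0.5, 85.1% of 1 and 100% of 2 on the log2 scale. Of its 157 calls, 4 were false. The simulation used independent normal noise and changed a far smaller share of probe sets than the 11.8% called in the real data. Its rates therefore need not hold for the real comparison.

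The members and lists were chosen with earlier results of these data known. All members are named, with up to 4 called genes per list (2 by absolute difference if no member was called) and the 3 closest profiles per called member. Alternatives were a replicate block, other scalings, a filter on dim probe sets, other priors, array weights, 1 probe set per gene, a stricter threshold and leaving out each array.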

Additional observations from a re-analysis of the deposited data

How the results depend on the processing

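Each member probe set kept its sign in all settings that gave a value, and the 4 that rose stayed called except that the fli1 probe set is left out, with its call, by the filter on dim probe sets and by the choice of 1 probe set per gene. The number that fell was 2 to 4 over the fits that left out 1 array, and 2 at an adjusted p under 0.01, the ones lost being etv5b and the dimmer etv5a probe set. Over all probe sets, 504 rose and 628 fell with 1 probe set per gene, where fewer were tested, 415 and 411 at an adjusted p under 0.01, and 450 to 1023 and 433 to 1286 with 1 array left out. In the related lists 11 genes fell, and 6 to 13 with 1 array left out, the fewest without transgenic replicate 1; the cause was not tested. Same-numbered arrays did not deviate in the same direction from their group means, with correlations of -0.082, -0.099 and -0.076. Between differently numbered arrays the correlations ran from -0.003 to 0.077. These values cannot show whether same-numbered pools were prepared together. With the replicate block, 4 member probe sets rose and 4 fell, and 705 and 871 over all. The 3 other scalings moved the median of all differences by at most 0.01. Taking the highest control mean (4.67) or the median of all values (5.10) as reference, 9 member probe sets lay above it in at least 1 group, as with 4.23. With 1 array left out, the change of etv6 minus that of gabpa (0.57) ranged from 0.28 to 0.83. That of etv4 minus etv5b (-0.30) ranged from -0.35 to -0.24. Probe sets near background bound what can be said of fli1 and erg.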
